A study of Mus musculus with 18 samples.

Results

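The cytosolic ribosomal protein genes of mouse encode the proteins of the large (Rpl) and small (Rps) ribosomal subunits. They were taken here as all genes whose symbol is Rpl or Rps followed by a digit, or is Rplp0, Rplp2 or Rpsa. Pseudogene names and the Rps6k kinases were left out. On the arrays 50 of the 18193 genes with an unshared probe set met this rule, 26 Rpl and 24 Rps. Another 31 symbols of the same form, among them Rplp1, sit only on probe sets that name several genes, and these have no value here. One of the 50, Rps19bp1, encodes a protein that binds Rps19 and is not itself a ribosomal subunit.

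The data are 18 one-colour Affymetrix arrays, 17 of sorted cells and 1 of a commercial reference RNA. The tumor arrays come from 3 mammary tumors of mice (tumors 1, 2 and 7), each split by staining for CD29, the integrin beta1 chain, and CD24 into 4 populations with high (H) or low (L) stain, so that each population has n = 3 arrays. Tumors 1 and 2 are labelled as first transplantation generation; for tumor 7 no generation is given. They give no genotype and no age; the study is known to have used tumors of p53-null mammary tissue, which would make that loss common to all 12 tumor arrays. Of the arrays labelled as normal mammary epithelium, 2 are CD29H CD24P, 2 are CD29P CD24H (P for positive stain) and 1 is CD24 low. The normal arrays carry the numbers 1 and 2; whether a number is 1 animal or a pool is not stated. p-values that rest on them measure the spread between these samples, which may be technical.

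Of the listed markers, 9 of 9 basal genes tested passed as higher in CD29H CD24P than in CD29P CD24H normal cells, and 8 of 9 luminal genes as lower, in limma's fit. On the normal CD24 low array the mean of the fibroblast markers was 14.22, above the 7.43 to 8.83 of the 4 other normal arrays. Its luminal mean of 8.33 lay below all 4 (10.52 to 13.86). Its basal mean of 7.98 lay below the CD29H CD24P arrays (13.62 and 13.71) and above the CD29P CD24H arrays (7.25 and 7.44). These markers set it apart from the arrays sharing its epithelial label, and it was kept out of the comparisons.

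A ribosome carries 1 copy of nearly every ribosomal protein, and the genes are usually transcribed in concert. Their messenger RNAs commonly begin with a run of pyrimidines, the 5′ terminal oligopyrimidine tract, through which mTOR signalling and the protein Larp1 set how strongly they are translated. A few genes have paralogs with narrower expression, such as Rpl39l, best known from testis, and Rps27l, known as a target of p53.

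The starts of the genes are shown because this tract is the feature that members commonly share at the sequence level. RefSeq promoters of build GRCm38.p6 were matched by symbol for 44 of the 50 genes. A tract was counted where at least 8 consecutive letters that are each C or T covered the annotated first transcribed base on the transcribed strand. Of the 44 genes 12 had one (27.3%): Rpl7a, Rpl14, Rpl27a, Rpl35, Rpl38, Rplp2, Rps6, Rps9, Rps10, Rps18, Rps24 and Rps27. Among all 27025 genes with a promoter sequence 4.59% had one. The same search on the other strand found 1 of the 44 genes and 6.87% of all genes. The tracts were 9 to 21 bases long. The windows below run from 15 bases before the annotated start to 15 bases from it on; capitals mark the tract, and the first 6 genes have one.
Rpl35, chr2:39005117-39005146, minus strand: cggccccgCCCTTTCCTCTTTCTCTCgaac
Rpl27a, chr7:109519180-109519209, plus strand: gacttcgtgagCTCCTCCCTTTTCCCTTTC
Rplp2, chr7:141447636-141447665, plus strand: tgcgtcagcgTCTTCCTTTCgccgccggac
Rps6, chr4:86857353-86857382, minus strand: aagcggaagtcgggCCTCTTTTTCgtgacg
Rps9, chr7:3704026-3704055, plus strand: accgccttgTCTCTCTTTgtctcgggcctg
Rps24, chr14:24490663-24490692, plus strand: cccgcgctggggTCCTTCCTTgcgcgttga
Rps15, chr10:80292416-80292445, plus strand: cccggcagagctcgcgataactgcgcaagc
Rpl41, chr10:128549154-128549183, minus strand: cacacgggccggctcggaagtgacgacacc
Rps27l, chr9:66946071-66946100, plus strand: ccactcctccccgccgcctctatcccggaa
Rpl39l, chr16:10170213-10170242, plus strand: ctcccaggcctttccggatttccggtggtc
Rps15, Rpl41, Rps27l and Rpl39l had no tract over this base. For Rps24 and Rps27l the first of 2 listed promoters is shown. The match depends on the annotated base, and a missing match says only that these letters do not cover it. A match may also include letters before that base, which lie outside the annotated messenger RNA. Its capitals do not by themselves show the 5′ terminal tract described above.

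Levels are log2(intensity + 32), on a scale where an intensity of 0 gives 5. The dimmest 40% of genes by mean level were not tested, and 10916 genes remained, 47 of the 50 among them. Rps4l, Rpl3l and Rps16 fell below that limit. Rps16 lay between 5.04 and 5.39 on the 17 sorted-cell arrays, so its single probe set gave hardly any signal on any of them. The tested ribosomal protein genes varied over the 17 sorted-cell arrays by a median range of 1.78, against 2.26 for all genes tested. The narrowest tested ranges were those of Rps2 (0.68), Rps3 (0.72), Rpl7 (0.78) and Rps20 (0.95), proteins of both subunits. The widest were those of Rps15 (5.75), Rpl27a (5.52), Rps9 (4.67) and Rpl39l (4.49).

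The median over the 47 genes lay between 14.37 and 14.56 on the 4 normal epithelial arrays. On the 12 tumor arrays it ran from 13.08 to 14.72. Only the CD29L CD24L array of tumor 2, at 14.72, reached the normal range, and the other 11 tumor arrays lay at 14.17 or below, under all 4 normal ones. The means by tumor population were 13.73 ± 0.53 for CD29H CD24H, 13.46 ± 0.40 for CD29H CD24L, 13.67 ± 0.55 for CD29L CD24H and 14.19 ± 0.46 for CD29L CD24L (SD, n = 3). These populations overlapped. The normal CD24 low array stood at 13.66 and the reference RNA at 14.84.

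A measure of RNA quality also set most tumor arrays apart from the normal epithelial ones. The arrays carry control probe sets for the 3′ and 5′ ends of actin, and a high ratio of the first to the second means that 5′ sequence is poorly represented. The ratio was 3.08, 6.33, 7.09 and 24.7 on the normal epithelial arrays. It lay between 49.6 and 99.3 on 10 tumor arrays. The 2 remaining ones, CD29H CD24H and CD29L CD24L of tumor 2, had 23.2 and 14.4. Within these groups the levels did not simply follow the ratio. The highest ratio, 99.3 on the CD29L CD24L array of tumor 1, went with a ribosomal protein median of 13.90. On the normal epithelial arrays with ratios of 3.08 and 24.7 the median was 14.51 and 14.46. The reference RNA had a ratio of 15.02. The normal CD24 low array had a ratio of 11.3 and a ribosomal protein median of 13.66. How far the ratio accounts for the differences between tumor and normal cells was not tested beyond the fit with the ratio as a covariate given below.

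**Figure D1:**
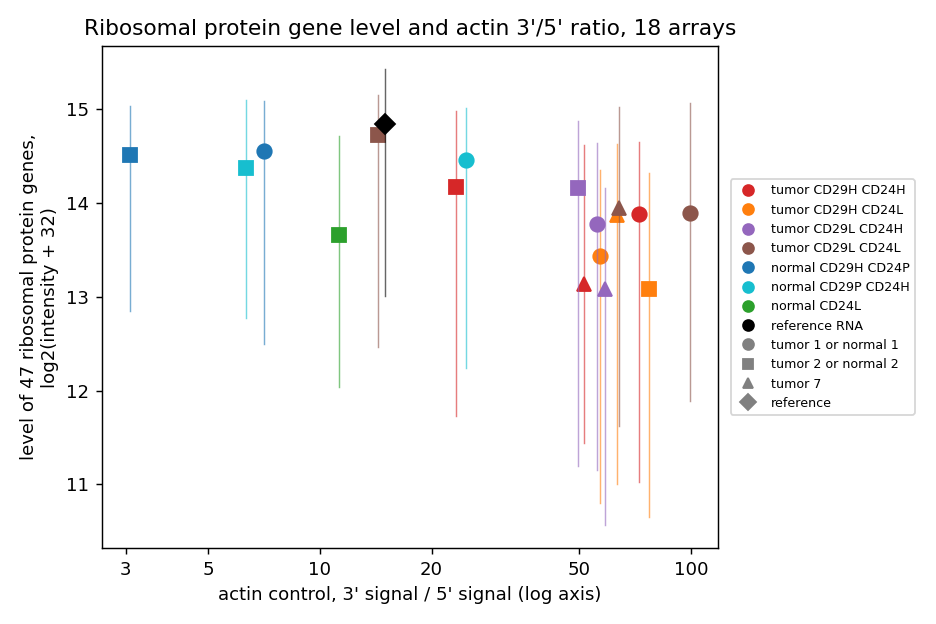
Median level of the 47 tested ribosomal protein genes on each of the 18 arrays (vertical axis, log2 of intensity + 32) against the actin 3′/5′ ratio (horizontal, log axis); vertical lines run from the lower to the upper quartile of the genes. The 4 normal epithelial arrays lie at ratios of 3.08 to 24.7 and medians of 14.37 to 14.56, and 10 of the 12 tumor arrays lie at ratios of 49.6 or more and medians of at most 14.16.

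The CD29L CD24L array of tumor 2 stood apart from the rest of that tumor. Of the 47 genes 31 were higher on it than on the other 3 arrays of tumor 2, where 23.5% of all genes were, and 3 were lower. Its difference from the mean of those 3 arrays had a median of 0.64 for the ribosomal protein genes and −0.10 for all genes. Rps15 read 13.76 on it and at most 9.53 on the others, and Rpl27a 10.47 against at least 14.07. Both are values of the kind seen on the normal arrays. It was also the tumor array with the highest macrophage and myeloid marker mean, 11.39 over 12 genes, against 8.71 to 10.45 on the other 11 tumor arrays and 7.07 to 7.55 on the 4 normal ones. The part of these cells in its values was not tested. Without it 13 of the 47 genes passed between tumors and normal epithelium, beside 8.28% of all genes, in place of the 11 given below: Rpl22l1 (adjusted p = 0.0664) and Rpl39l (0.0510) did not pass, and Rps4x, Rpl35, Rplp0 and Rps9 did.

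Tumors were compared with normal epithelium through 1 mean per tumor and 1 per normal number, 3 against 2. Ribosomal protein genes were lower on balance in the tumors: 36 of 47 had negative differences, with a median of −0.58 beside 0.04 for all genes. Of the 47, 11 passed at an adjusted p below 0.05 in limma's fit, where 7.26% of all genes did. Rps15, Rpl22l1, Rpl41, Rps19, Rps27l, Rps24, Rplp2 and Rps3a1 fell, where 2.92% of all genes did, and Rpl27a, Rpl39l and Rps25 rose, where 4.34% did. In 28 genes all 3 tumor means lay below both normal means (23.3% of all genes), and in 5 all lay above (25.9%). Of 25 tested genes of the large subunit and its stalk 20 were negative, with a median of −0.61, and of 22 of the small subunit list 16, with a median of −0.37. The 12 genes with a pyrimidine tract had a median of −0.76, with 9 negative, and the 30 other tested genes with a promoter sequence −0.59, with 25 negative.

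**Figure D2:**
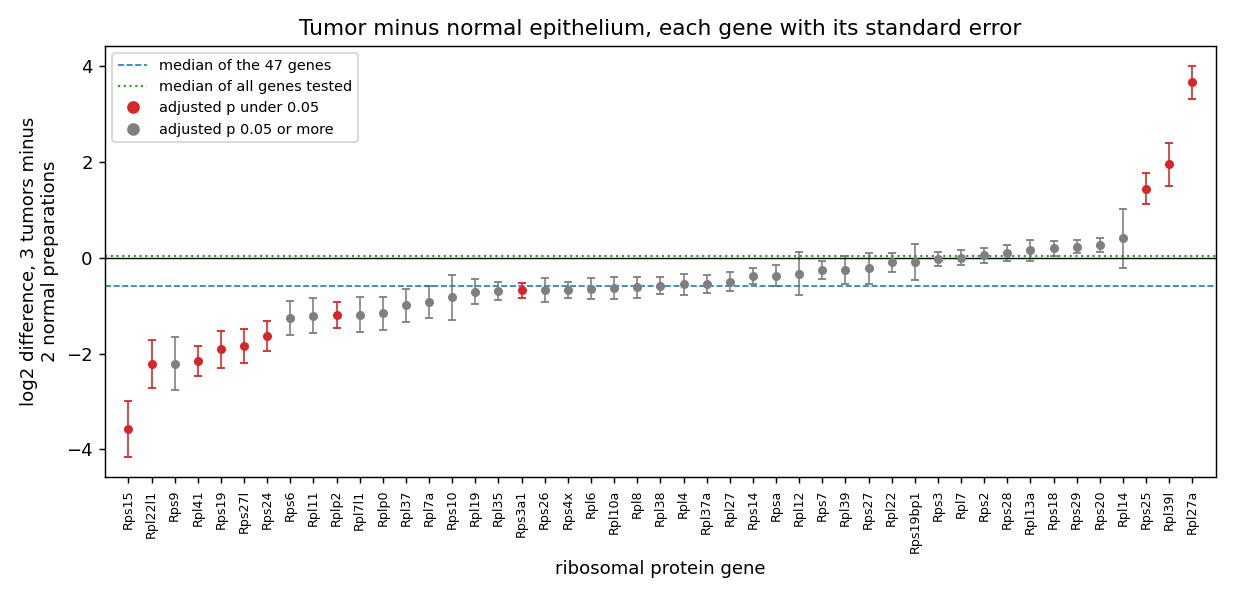
Log2 difference between 3 tumors and 2 normal samples for each of the 47 tested ribosomal protein genes (points, with standard errors from limma), ordered by size; red points have an adjusted p below 0.05. Of the 47 points 36 lie below 0, and the dashed line marks their median of −0.58 beside the dotted line at 0.04 for all genes.

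Among the small subunit genes, Rps15, whose protein sits near the decoding site, read 8.35 at the lowest, 9.19 at the median and 13.76 at the highest on the 12 tumor arrays. The normal arrays read 13.58 and 14.09 in CD29H CD24P and 11.06 and 13.56 in CD29P CD24H cells. All tumor arrays but the CD29L CD24L array of tumor 2 lay at 9.53 or below, under every normal array. The difference was −3.57 ± 0.59 (SE; adjusted p = 0.0203, limma) and −3.95 without that array.

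Rps19, mutated in Diamond-Blackfan anemia, ranged over 10.51, 11.24 and 13.86 (lowest, median and highest) in the tumors. The normal values were 13.43 and 13.86 in CD29H CD24P and 13.43 and 13.22 in CD29P CD24H cells. The difference was −1.91 ± 0.39 (adjusted p = 0.0340). Rps24, another gene of that disease, ran over 11.57, 12.99 and 14.91 in tumors, against 14.67, 14.48, 14.26 and 14.79 in normal cells, and fell by 1.64 ± 0.31 on the log2 scale (adjusted p = 0.0281). In both genes the CD29L CD24L array of tumor 2 was the highest tumor array and overlapped the normal ones. For Rps3a1, a core small subunit protein, the tumor values were 13.63, 14.45 and 15.31 and its normal values 15.30, 15.23, 15.12 and 15.10, a small difference of −0.68 ± 0.15 (adjusted p = 0.0459).

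Rps25 went the other way. This gene, whose protein is needed for translation from several viral internal ribosome entry sites, read 12.10, 13.19 and 13.73 in the tumors. The normal arrays read 11.96 and 11.55 in CD29H CD24P and 11.51 and 11.66 in CD29P CD24H cells. Every tumor array lay above every normal epithelial array, as was true of 4.24% of all genes and of no other of the 47. The difference was 1.44 ± 0.33 (adjusted p = 0.0451).

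In the large subunit, Rpl41, the smallest ribosomal protein, read 10.18, 11.83 and 14.31 in the tumors and 13.84, 13.78, 13.60 and 14.34 in normal cells. It fell by 2.15 ± 0.31 on the log2 scale (adjusted p = 0.0147). Rplp2, a component of the acidic stalk that recruits translation factors, read 12.61, 13.67 and 15.35 in tumors and 14.96, 15.03, 14.65 and 15.11 in normal cells, a difference of −1.19 ± 0.28 (adjusted p = 0.0479). For both genes the CD29L CD24L array of tumor 2 was the highest tumor array. Rplp0, the base of the same stalk and a common reference gene, differed by −1.15 ± 0.34 and did not pass (adjusted p = 0.0860). Rpsa, the laminin receptor precursor of the small subunit, differed by −0.37 ± 0.22 (adjusted p = 0.312).

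Rpl27a, a protein of the large subunit, had the largest difference in either direction. Its probe set read 10.47 at the lowest, 14.31 at the median and 15.16 at the highest in the tumors, and 10.20, 9.65, 11.01 and 10.78 in normal cells. The lowest tumor value was again the CD29L CD24L array of tumor 2, and the other 11 arrays lay at 13.87 or above. The reference RNA read 11.13 and the normal CD24 low array 10.64. The difference was 3.67 ± 0.35 (adjusted p = 0.00607) and 4.01 without that array. A second, dim probe set of Rpl27a differed by 0.63 ± 0.22 and did not pass (adjusted p = 0.128 over all probe sets).

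The paralogs are given beside their better known partners. Rps27l read 9.93, 10.76 and 11.67 in the tumors and 11.95, 12.30, 13.46 and 12.41 in normal cells, with no overlap, and fell by 1.84 ± 0.36 on the log2 scale (adjusted p = 0.0300). Its partner Rps27 differed by −0.22 ± 0.32 (adjusted p = 0.685). Rpl22l1 read 9.21, 11.82 and 12.90 in the tumors and 13.42, 13.70, 13.69 and 13.47 in normal cells, also without overlap, a difference of −2.22 ± 0.51 (adjusted p = 0.0459). Its partner Rpl22 differed by −0.09 ± 0.20 (adjusted p = 0.803), although a second Rpl22 probe set differed by −2.35 ± 0.45 (adjusted p = 0.0308 over all probe sets). All 12 tumor arrays lay below all 4 normal ones in 4 of the 47 genes, Rps27l, Rpl22l1, Rpl7l1 and Rps6, as in 3.34% of all genes. Rpl7l1 (−1.19 ± 0.37) and Rps6 (−1.26 ± 0.36) did not pass (adjusted p = 0.0949 and 0.0770), and Rpl7, the partner of Rpl7l1, differed by 0.01 ± 0.15. Rpl39l read 6.19, 7.97 and 10.44 in the tumors and 6.30, 6.11, 6.04 and 5.95 in normal cells, a difference of 1.96 ± 0.45 (adjusted p = 0.0460), and Rpl39 differed by −0.25 (adjusted p = 0.623). The difference between a paralog and its partner was not itself tested.

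Rps4l, a paralog of the X-linked Rps4x, lay below the limit on low levels because most arrays showed no signal. Its level was 8.53 and 8.47 in CD29H CD24P, 7.48 and 8.09 in CD29P CD24H and 7.73 in CD24 low normal cells. On the 12 tumor arrays it lay between 5.16 and 5.42, and in the reference RNA at 5.18, next to the value of 5 that no signal gives. In signal units that is 146 to 338 on the normal arrays and 3.66 to 10.9 in the tumors. In a fit without the limit, where 4.82% of 18193 genes passed, the difference was −2.88 ± 0.23 (adjusted p = 0.00473, limma). Rps4x differed by −0.67 ± 0.16 (adjusted p = 0.0529).

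**Figure D3:**
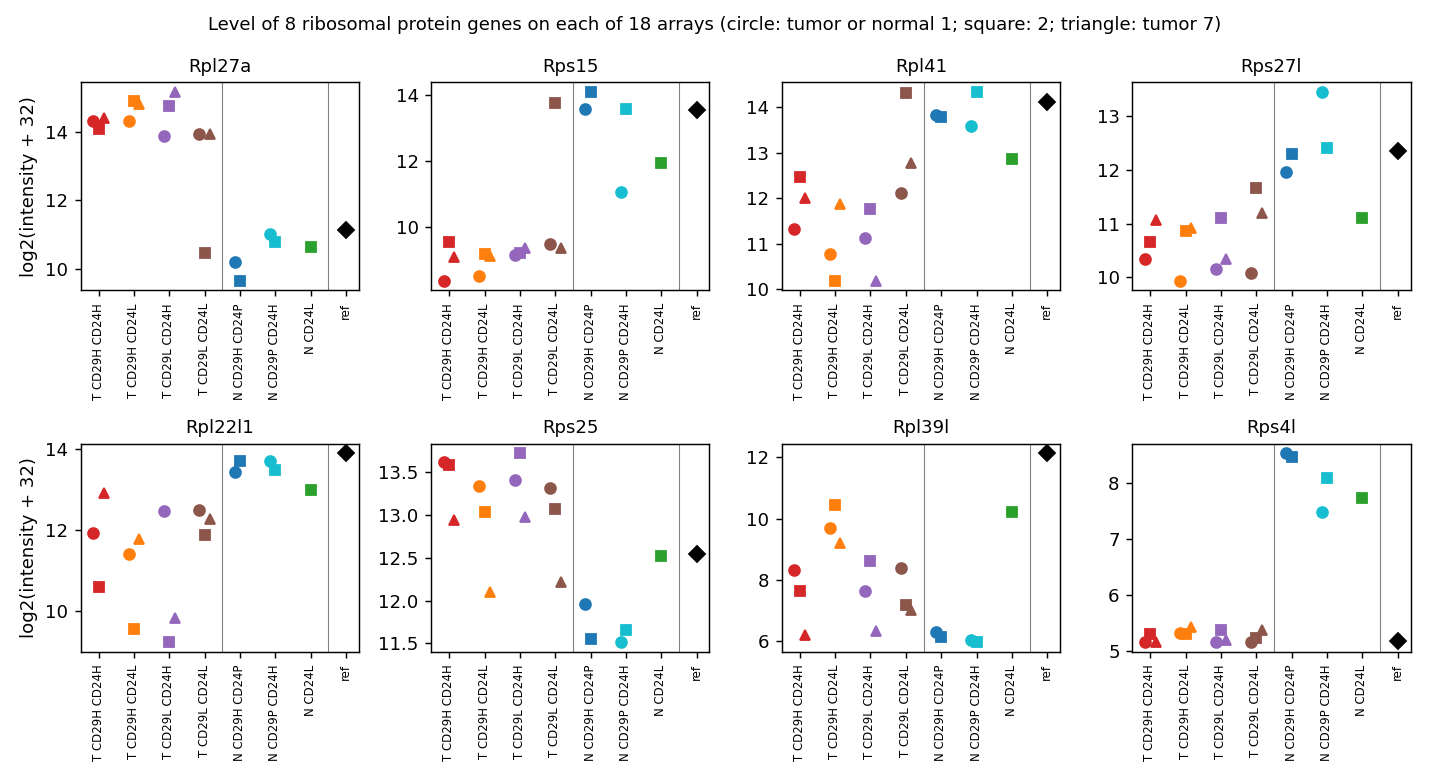
Level (log2 of intensity + 32) of 8 ribosomal protein genes on each of the 18 arrays, by sorted population of tumors (T, left), normal cells (N, middle) and the reference RNA (ref, right); each panel has its own vertical scale. Rps4l is at 5.16 to 5.42 on every tumor array and at 7.48 or more on every normal array, and the CD29L CD24L array of tumor 2 (brown square) lies with the normal arrays in the panels of Rpl27a, Rps15 and Rpl41.

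The actin 3′/5′ ratio was then entered as a covariate in a fit of the 17 sorted-cell arrays with each tumor or normal number as a random block, a setting added after seeing the data. In it 0 of the 47 genes passed, and 1.03% of all genes. The median difference of the 47 was −0.0753, with 28 negative. An unadjusted p below 0.05, not counted over all genes, was found for 3: Rps25, Rps27l and Rps6. The differences of these 3 changed little, to 1.45 ± 0.48, −1.67 ± 0.63 and −1.16 ± 0.52 (adjusted p = 0.172, 0.242 and 0.336). That of Rps15 went to −0.08, that of Rpl41 to −0.25 ± 0.71, that of Rpl39l to 0.82 ± 0.76 and that of Rpl27a to 1.05. The same fit without the ratio called 14 of the 47, beside 12.5% of all genes; Rps3a1 was not among them, and Rpl11, Rps9, Rpl7l1 and Rps6 were. Since 10 of 12 tumor arrays lie above every normal array in the ratio, what belongs to it and what to the tumors cannot be told apart.

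Other scalings shifted the split of calls: quantile normalization gave 2 higher and 11 lower (6.72% of all genes passed), and a shift of each array to a common median 1 higher and 13 lower (9.33%). Under the first Rpl39l did not pass (adjusted p = 0.0755), and under the second neither Rpl39l nor Rps25 did (0.0555 and 0.0645). The count of 11 also rested on single samples. With the mean over a gene's probe sets 10 passed, beside 7.39% of all genes, and Rpl41, Rps24, Rplp2 and Rps3a1 were not among them. The count was 2 without tumor 1, where 3.32% of all genes passed. With only 1 normal number left, 0 members passed and 0% or 0.0183% of all genes, so these fits say nothing of the ribosomal protein genes. Leaving out 1 array gave 2 without CD29H CD24P of normal 1 (2.95% of all genes), 4 without CD29H CD24L of tumor 2 (5.36%) and 5 without any 1 of the 3 other normal arrays (3.65% to 4.43%). It gave 6 without CD29H CD24L of tumor 1 (5.40%), and 7 without CD29L CD24H (7.47%) or CD29H CD24L (5.06%) of tumor 7. The median difference of the 47 lay between −0.71 and −0.47 over all fits with an array, tumor or normal number left out. It was −0.71 by quantile normalization and −0.79 after the median shift, beside 0.03 and −0.17 for all genes. With the mean over a gene's probe sets it was −0.65. Markers of cell types changed in the same comparison. Of these, 10 of 12 fibroblast genes and 8 of 11 tested myeloid genes passed as higher in tumors, where 4.34% of all genes did. Of the tested adipocyte genes 2 of 2 passed as higher, and of the endothelial genes 1 of 5. Luminal genes had a median of −1.90, with 1 of 9 passing as higher and 3 as lower. Basal genes had a median of −1.39, with 0 of 9 passing as higher and 2 as lower. Of 4 tested lymphocyte genes 0 passed as higher and 1 as lower. The part of any of these cells in the ribosomal protein values was not tested. In these bulk samples fewer cells of a type and less RNA per cell cannot be told apart.

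Different probe sets of a gene often disagreed. The 50 genes have 106 unshared probe sets, and 24 genes have more than 1. Tested singly over all 34945 probe sets, 25 of the 106 passed, 22 lower and 3 higher in tumors, beside 4.24% of all probe sets. In 14 of the 24 genes the probe sets differed by more than 1 on the log2 scale. The 4 probe sets of Rpl41 gave −4.19, −2.15, −0.02 and 0.17. The 6 probe sets of Rps10 ran from −2.92 to 0.35, and its brightest gave −0.82 and did not pass. The 6 of Rpl35 ran from −2.77 to 0.38, and its brightest gave −0.69 and did not pass. The 3 of Rps27l gave −1.92, −1.84 and −1.82, all 3 passing, and both Rps15 probe sets passed, at −3.57 and −2.62. Probe sets of ribosomal protein genes can also bind transcripts of their many pseudogenes.

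**Figure D4:**
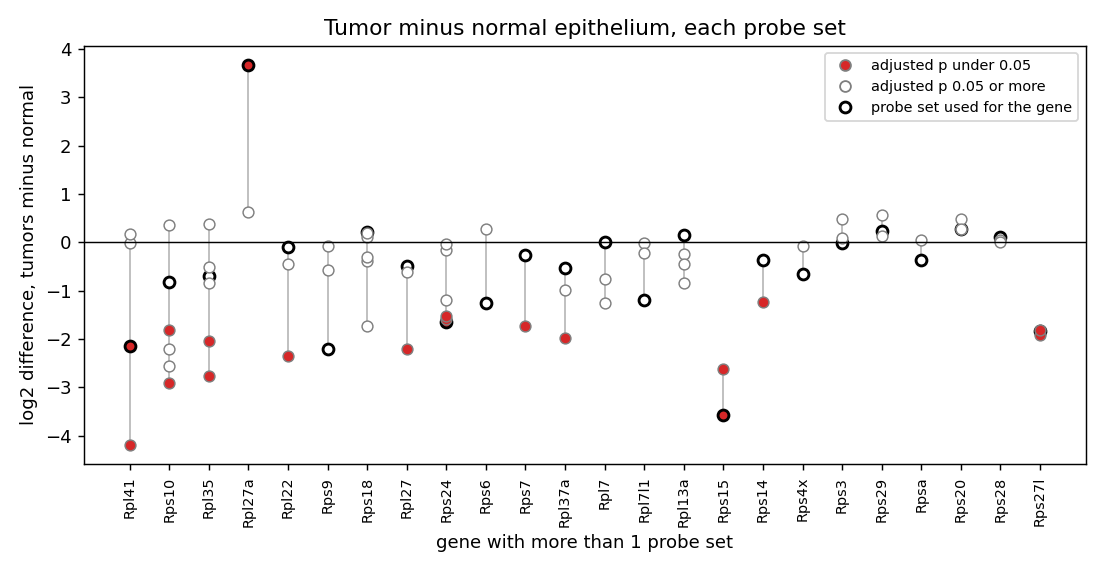
Log2 difference between tumors and normal epithelium for every probe set of the 24 ribosomal protein genes with more than 1, ordered by the spread within a gene; filled points have an adjusted p below 0.05 over all probe sets, and thick outlines mark the probe set used for the gene. The spread is largest in Rpl41, from −4.19 to 0.17, while the 3 probe sets of Rps27l lie together near −1.8 to −1.9.

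The tumor comparison of the study asks what sets CD29H CD24H cells, the population in which the tumor-initiating cells were sought, apart from the others. Ribosomal protein genes did not pass in this comparison: 0 of 47 did, as did 0% of all genes, with 1 of 47 below an unadjusted p of 0.05 beside 766 of 10916 genes. With the tumor as a replicate block 0 of 47 passed as well, beside 0.751% of all genes. In that fit 3 of 47 had an unadjusted p below 0.05, beside 1800 genes in all. The median difference was −0.04, beside 0.00 for all genes, and its sign turned on 1 array: it was −0.19 without CD29H CD24H of tumor 2 and 0.13 without CD29H CD24H of tumor 7. Without the block the smallest p belonged to Rps3a1, at 0.58 ± 0.22 (adjusted p = 0.594), which had the same sign in 3 of 3 tumors. Rpl39 (−0.66 ± 0.32) and Rpl37a (−0.47 ± 0.25) followed.

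Against CD29H CD24L cells 0 of 47 genes passed (2.18% of all genes). An unadjusted p below 0.05 was found for 3 of 47, beside 952 genes in all. Of the 47, 36 were higher in CD29H CD24H cells, where 54.2% of all genes were. The median of the 47 was 0.14, beside 0.05 for all genes, and 0.02 to 0.45 with samples left out. The 4 arrays of a number come from the same tumor, and with the tumor as a replicate block 2 passed, beside 5.05% of all genes: Rpl39l, lower in CD29H CD24H cells, and Rps3a1, higher. Rpl39l read 8.30, 7.63 and 6.19 in CD29H CD24H cells of tumors 1, 2 and 7, and 9.70, 10.44 and 9.21 in their CD29H CD24L cells. The groups did not overlap, and within each tumor the CD29H CD24L array was the highest of the 4. The difference was −2.41 ± 0.66 without the block (adjusted p = 0.107) and −2.41 ± 0.42 with it (adjusted p = 0.00223). The blocked call held without any single array (adjusted p = 0.000686 to 0.0228) and was lost without tumor 7 (adjusted p = 0.0516).

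The markers of fibroblasts moved with Rpl39l. Their mean over 12 of 12 genes was 13.21, 13.60 and 13.24 on the CD29H CD24L tumor arrays, 9.18 to 11.71 on the other tumor arrays and 7.43 to 8.83 on the 4 normal epithelial arrays. All 12 were lower in CD29H CD24H than in CD29H CD24L cells, 9 of them passing without the block and 12 with it. None was at the level of no signal on all arrays. The normal CD24 low array, with a fibroblast mean of 14.22, had a Rpl39l level of 10.20, against 5.95 to 6.30 on the 4 normal epithelial arrays. On the reference RNA, with a fibroblast mean of 10.88, Rpl39l stood at 12.14. Markers of other cells moved as well. Of the tested endothelial, adipocyte and myeloid genes 0 of 5, 0 of 2 and 0 of 11 were higher in CD29H CD24H than in CD29H CD24L cells. Of the lymphocyte genes 1 of 4 was higher, and of the luminal and basal genes 6 of 9 each. The adipocyte mean was 10.13 on the normal CD24 low array and 6.27 to 6.78 on the 4 normal epithelial arrays. The part of fibroblasts or of any of these cells in the Rpl39l level was not tested.

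Rps3a1 read 14.52, 15.31 and 15.01 in CD29H CD24H cells of tumors 1, 2 and 7 and 14.23, 13.63 and 13.99 in CD29H CD24L cells. The difference was 0.99 ± 0.28 (adjusted p = 0.115) and, with the block, 0.99 ± 0.27 (adjusted p = 0.0434). The blocked call was lost with the actin ratio as a covariate (0.88, adjusted p = 0.0953), and without 6 single arrays, both CD29H arrays and the CD29L CD24L array of tumor 2 (adjusted p = 0.287, 0.284 and 0.0501) and the same 3 of tumor 7 (0.157, 0.0960 and 0.0569).

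Against CD29L CD24H cells 0 of 47 genes passed, as did 0% of all genes, with 2 of 47 below an unadjusted p of 0.05 beside 287 genes in all. With the block 0 of 47 passed as well, beside 0.00916% of all genes. In that fit 3 of 47 had an unadjusted p below 0.05, beside 886 genes in all. The median difference was −0.02, and −0.16 to 0.22 with samples left out. Rps3a1 (0.77 ± 0.28), Rps4x (0.71 ± 0.31) and Rpl39 (−0.76 ± 0.39) had the smallest p-values without the block, each with 3 of 3 tumors alike.

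Against CD29L CD24L cells 41 of 47 ribosomal protein genes were lower in CD29H CD24H cells, while 51.3% of all genes were higher. The median was −0.36 beside 0.01 for all genes. None passed, where 0.0366% of all genes did, and 4 of 47 had an unadjusted p below 0.05, beside 679 genes in all. With the block none of the 47 passed either, beside 0.467% of all genes. In that fit 13 had an unadjusted p below 0.05, beside 1780 genes in all. Without the block Rpl38 (−1.10 ± 0.36), Rpl37a (−0.90 ± 0.31) and Rpl27 (−0.74 ± 0.27), all of the large subunit, had the smallest p-values, with the same sign in 3 of 3 tumors (adjusted p = 0.647 to 0.655). Leaving out CD29L CD24L of tumor 2 brought the median to −0.16, leaving out CD29H CD24H of tumor 7 to −0.15, and leaving out all of tumor 7 to −0.21. Lymphocyte and myeloid markers were also lower in CD29H CD24H cells: the 4 of 12 lymphocyte genes that were tested and 11 of 11 tested myeloid genes were negative, and 2 and 0 passed. Of the fibroblast genes 1 of 12 was higher, of the tested endothelial genes 1 of 5 and of the adipocyte genes 1 of 2. Of the luminal and basal genes 3 and 4 of 9 were higher, and no gene of these other lists passed.

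For the CD29 gate, averaged over both CD24 gates, 44 of 47 genes were lower in CD29 high cells, with a median of −0.27 beside −0.01 for all genes, and 49.1% of all genes were higher. None of the 47 passed, as with 0% of all genes, and 3 had an unadjusted p below 0.05, beside 708 genes in all. With the block none of the 47 passed either, beside 0.861% of all genes. In that fit 11 had an unadjusted p below 0.05, beside 1720 genes in all. The median was −0.17 without CD29L CD24L of tumor 2 and also without CD29H CD24H of tumor 7, −0.18 without all of tumor 2, and −0.15 without CD29H CD24L of tumor 2 in the blocked fit. After the shift to a common median it was −0.15, beside 0.11 for all genes. Rpl39l was one of the 3 genes that were higher in CD29 high cells (1.04 ± 0.47, adjusted p = 0.741 without the block).

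For the CD24 gate 0 of 47 genes passed, where 0.724% of all genes did. An unadjusted p below 0.05 was found for 1 of 47, beside 862 genes in all. Of the 47, 35 were lower in CD24 high cells, while 55.2% of all genes were higher. The median of the 47 was −0.10, beside 0.04 for all genes, and −0.20 to 0.06 with samples left out. With the block Rpl39l passed as lower in CD24 high cells (−1.21 ± 0.30, adjusted p = 0.0359), where 3.88% of all genes passed. That call was lost without tumor 1 (adjusted p = 0.0787) or tumor 7 (0.340), and without 8 of the 12 single arrays. The difference averages both CD29 gates, and that among CD29 high cells is given above. In CD29 low cells Rpl39l read 7.64, 8.62 and 6.34 with CD24 high in tumors 1, 2 and 7. With CD24 low it read 8.40, 7.18 and 7.02 there, lower than with CD24 high in tumor 2.

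Whether the CD24 difference was alike in CD29 high and CD29 low cells was tested as an interaction, added after seeing the data. No member passed without the block, as no gene did (0%), and with it 3 passed, beside 1.93% of all genes. In these 3 genes the CD24 high cells were above the CD24 low cells among CD29 high cells and below them among CD29 low cells, in every tumor. For Rps3a1 the difference of differences was 1.80 ± 0.38 (adjusted p = 0.0255), for Rplp2 2.12 ± 0.46 (adjusted p = 0.0302) and for Rpl41 3.03 ± 0.72 (adjusted p = 0.0428). Rpl41 read 11.33, 12.47 and 12.00 in CD29H CD24H and 10.77, 10.18 and 11.88 in CD29H CD24L cells of tumors 1, 2 and 7. In CD29 low cells it read 11.13, 11.77 and 10.18 with CD24 high and 12.12, 14.31 and 12.78 with CD24 low.

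With the actin ratio as a covariate none of the 3 passed (adjusted p = 0.0556, 0.0606 and 0.0738). All 3 calls were lost without any 1 of the 4 arrays of tumor 2 (adjusted p = 0.0633 to 0.140), and without the CD29L CD24H or the CD29H CD24H array of tumor 7 (adjusted p = 0.0765 to 0.129). The Rpl41 call was also lost without CD29L CD24H, CD29H CD24H or CD29H CD24L of tumor 1 (adjusted p = 0.0573, 0.0596 and 0.0727). The Rplp2 call was lost without the last of these (0.0521). Without CD29L CD24L of tumor 7 Rps3a1 and Rpl41 did not pass (0.0564 and 0.0511).

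**Figure D5:**
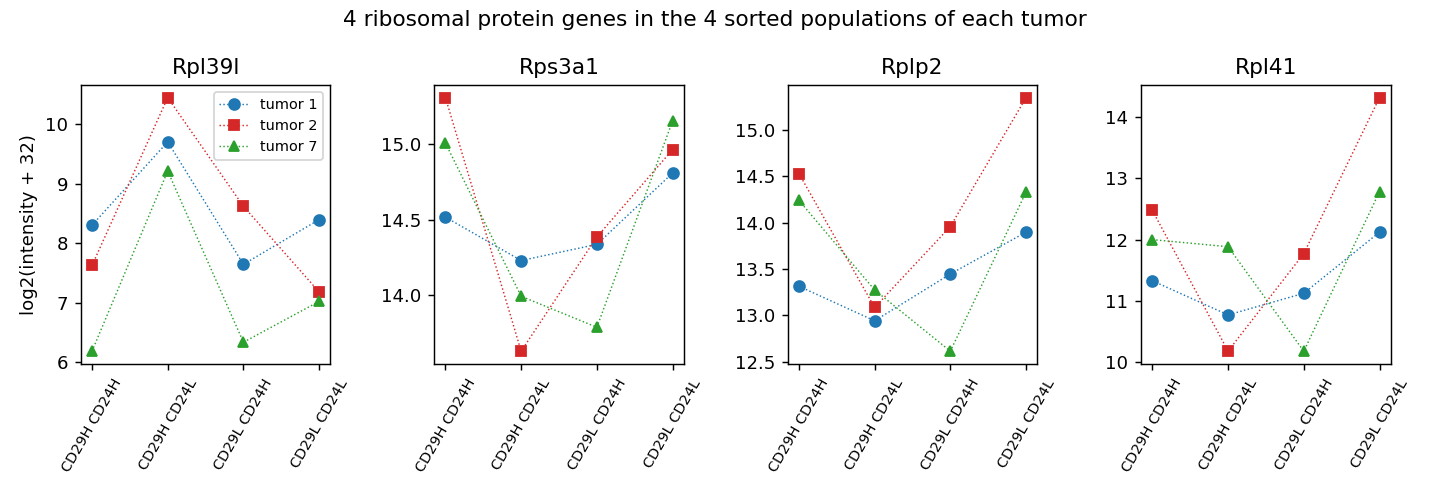
Level (log2 of intensity + 32) of Rpl39l, Rps3a1, Rplp2 and Rpl41 in the 4 sorted populations of tumors 1, 2 and 7; dotted lines join the arrays of a tumor and carry no order. Rpl39l is highest in the CD29H CD24L cells of each tumor (9.21 to 10.44), and Rps3a1, Rplp2 and Rpl41 are higher with CD24 high among CD29H cells and lower among CD29L cells in all 3 tumors.

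Over the 12 tumor arrays, which tumor an array came from took 33.3% of a ribosomal protein gene's variation (median share of its sum of squares), and which population 28.6%. For all genes tested these shares were 38.3% and 23.4%.

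In normal epithelium the ribosomal protein genes differed little between the populations. Between CD29H CD24P and CD29P CD24H cells 2 of 47 passed, where 27.3% of all genes did. The median difference was −0.03, beside −0.02 for all genes. Rpl27a was lower in CD29H CD24P cells, 10.20 and 9.65 against 11.01 and 10.78, by −0.97 ± 0.28 (adjusted p = 0.0285, limma). Rps9, a protein of the small subunit body, was higher, 13.60 and 14.60 against 12.67 and 13.38, by 1.07 ± 0.35 (adjusted p = 0.0484). Neither pair of values overlapped the other. With the actin ratio as a covariate, added after seeing the data, 0 passed, and Rps9 differed by 0.37 (adjusted p = 0.367). The count was 8 without CD29P CD24H of normal 2, where 42.6% of all genes passed, and 1, Rps15, without CD29H CD24P of normal 2, where 17.6% did. Each of these fits has 1 array in one group, which is assumed to vary like the other group.

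On the single normal CD24 low array 37 of the 47 genes lay below all 4 normal epithelial arrays, as did 36.8% of all genes, with a median difference of −0.52 beside −0.18. On the reference RNA 21 of 47 lay above all 17 sorted-cell arrays, where 15.6% of all genes did. With 1 array each these are values without a test.

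Other genes of ribosome production and translation were taken from lists. In tumors against normal epithelium 4.34% of all genes passed as higher and 2.92% as lower. The median over all genes was 0.04, and 52.2% were positive. Of 108 tested genes of ribosomal RNA synthesis and ribosome assembly 0 rose and 1 fell in tumors against normal epithelium, with a median of −0.27, and Nifk, a nucleolar RNA-binding protein, was the one that fell (−1.29 ± 0.28, adjusted p = 0.0418). Of 44 translation factors 1 fell, Naca, the alpha chain of the nascent polypeptide-associated complex (−1.99 ± 0.27, adjusted p = 0.0116), with a median of 0.03. Of 74 mitochondrial ribosomal proteins 1 fell, Mrps16 (−1.44 ± 0.32, adjusted p = 0.0454), and 11 were positive, with a median of −0.46. Of 20 genes of the Myc and mTOR axis 1 rose, Ddit4, an inhibitor of mTOR complex 1 (4.15 ± 0.45, adjusted p = 0.00659). Of these 20 genes 17 were positive, with a median of 0.31. Of 19 mitosis genes none passed and 18 were positive, with a median of 0.67. Fau, which encodes the ribosomal protein Rps30 under a symbol outside the rule, fell by 2.24 ± 0.43 on the log2 scale (adjusted p = 0.0279).

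Between the normal populations 24 of 108 assembly genes passed as higher in CD29H CD24P cells and 2 as lower, where 27.3% of all genes passed, with a median of 0.44. Rrp9 (2.69 ± 0.28) and the box C/D core protein Nop58 (1.67 ± 0.24) had the smallest p-values. In the same cells Mycn (3.87 ± 0.30) and Myc (1.04 ± 0.22) were higher and Mycl (−2.39 ± 0.36) was lower. Of the translation factors 2 passed as higher, and of the mitochondrial ribosomal proteins 1. In the 6 comparisons of tumor populations none of the genes of these 5 lists passed without the block. With it 1 did, the mitochondrial ribosomal protein gene Mrps33, higher in CD29H CD24H than in CD29H CD24L cells (1.78 ± 0.42, adjusted p = 0.0209). In that blocked fit 5.05% of all genes passed.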

How the data were processed

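RNA of the sorted cells was prepared with PicoPure columns and amplified over 2 rounds with T7 polymerase, per the labels' protocols. The authors deposited 1 intensity per probe set; the submitters' processing notes name GCOS, version not given in the sources used here. The mean trimmed by 2% at each end was the same on every array, so arrays were not rescaled. The 3′ bias of 2-cycle amplification bears on 5′ probes.

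Names came from the platform annotation, in which 34945 probe sets have 1 symbol and 932 several; 0 symbols were updated. Each gene was read from its probe set with the highest mean, as log2(intensity + 32). Linear models came from limma 3.58.1, run under R 4.3.3, with an intensity trend in eBayes and p-values adjusted by Benjamini-Hochberg over 10916 genes; errors are standard errors unless SD is named. The number of arrays limits the precision, and fold changes of dim genes are understated by the offset of 32. Detection calls were not used. Python 3.11.15 with matplotlib 3.10.9 made the figures. Only the unblocked fit of CD29H CD24H against the other tumor populations was tried on simulated data. The simulated arrays were independent, so it does not bear on the likeness of arrays of 1 tumor or on the other fits.

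The members and the gene lists were chosen with earlier results of these data known. Named genes are members that passed, or the 3 smallest p-values where none did, the widest and narrowest ranges, paralog pairs, the stalk proteins and Rpsa. Rps24, Rps6 and the probe sets were named after their values were seen.

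Arrays of 1 number come from the same tumor, and after group means were subtracted the 18 same-tumor pairs correlated at 0.385 to 0.726, against −0.672 to −0.0433 between tumors, so blocked values are printed where they change a call. No arrays were duplicates (highest correlation 0.980).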

Additional observations from a re-analysis of the deposited data

Results flagged for a closer look

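In 3 ribosomal protein genes the CD24 difference among CD29 high tumor cells differed from that among CD29 low tumor cells in a test of the interaction with the tumor as a block. The difference of differences was 1.80 for Rps3a1, 2.12 for Rplp2 and 3.03 for Rpl41. The calls rested on single arrays of tumors 2 and 7, those of Rplp2 and Rpl41 also on arrays of tumor 1. They also rested on the fit without the actin ratio, as given above.

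Rpl39l showed signal on both arrays that no comparison used. Its log2 level was 10.20 on the normal CD24 low array, above the 4 normal epithelial arrays, and 12.14 on the reference RNA, above all 17 sorted-cell arrays.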

How the results depend on the processing

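Results were recomputed with other offsets, scalings, filters, ways to join probe sets, no intensity trend, the replicate block, all 17 arrays, the actin ratio and each array, tumor or normal number left out. No direction of a called value reversed. Counts of members that passed changed as follows, with the share of all genes passing, or its range, in parentheses. CD29H CD24H against CD29H CD24L: 1 with the offset 4 times as large (2.51%) and 2 with the replicate block (5.05%). With 17 arrays it was 2 (2.87%), with the actin ratio and block 1 (4.23%), and over left-out samples 0 to 2 (0.00916% to 5.67%). Against CD29L CD24L: 2 with the actin ratio and block (1.78%), left-out range 0 to 1 (0% to 0.971%). CD29 gate: 1 with the actin ratio and block (2.25%), left-out range 0 to 1 (0% to 2.31%). CD24 gate: 1 with the replicate block (3.88%), 2 with the actin ratio and block (4.58%), left-out range 0 to 1 (0% to 4.15%). Normal populations: 1 with an offset of 1, 0 without the filter, 1 with the mean of probe sets, 1 without the trend, 0 with 17 arrays, 0 with the actin ratio, left-out range 1 to 8; the block, whose numbers did not pair these arrays (correlation 0.0623), gave 3 by adding Rps15. Tumors against normal, from 11 (7.26%): 7 without the trend (7.02%) and 0 with 17 arrays and the actin ratio (1.03%). With both normal numbers kept, the left-out range was 2 to 13 (2.95% to 14.6%). The other settings gave 9 to 14 (4.82% to 12.5%), with 9 without the filter (4.82%) and 10 with the mean of probe sets (7.39%). The larger offset gave 12 (7.81%), and leaving out the 2 low-ratio arrays of tumor 2 gave 14 (7.26%).

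Medians moved as follows. CD29H CD24H against the rest: left-out range −0.19 to 0.13. CD29 gate: left-out range −0.33 to −0.15. CD29H CD24H against CD29L CD24H: 0.12 after a median shift (0.12 for all genes), −0.13 without the 2 low-ratio arrays of tumor 2, left-out range −0.16 to 0.22. Against CD29L CD24L: −0.26 after a median shift (0.11 for all genes), left-out range −0.46 to −0.15. Normal populations: 0.0883 by quantile normalization and 0.0765 with the mean of probe sets. Tumors against normal: −0.0753 with 17 arrays and the actin ratio. After the median shift it was −0.79 beside −0.17 for all genes, where the unshifted values were −0.58 beside 0.04. The causes of these changes were not tested. Of the values of single named members under these settings 971 kept their side of the threshold, 135 lost it and 41 gained it.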
